A study of Mus musculus with 12 samples.

Results

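The 37 genes described here encode the enzymes that make cholesterol and fatty acids, the proteins that control those enzymes, and the carriers that move sterols within and out of cells. They were chosen by gene symbol from the 55357 genes in the count files and fall into 5 roles: 7 genes of the early mevalonate steps, 11 of the steps from farnesyl diphosphate to cholesterol, 6 regulators, 6 of sterol transport and storage, and 7 of fatty acid synthesis. All 37 passed the filter on low counts in every comparison. Their RNA was measured in mouse embryos at E17.5 (embryonic day), in the cerebral cortex dissected together with the hippocampal formation and split into a rostral and a caudal part. Knockout embryos are labelled with a Nestin-Cre transgene and Egfr F/F, both copies of the epidermal growth factor receptor gene being floxed, and control embryos with Egfr F/+, so that all embryos carry at least 1 floxed copy. The titles give 4 groups of 3 libraries, knockout rostral, control rostral, knockout caudal and control caudal, from knockout embryos 5, 2 and 7 and control embryos 1, 3 and 9. A second number in the titles, which the labels do not explain, is 4858 for embryos 5 and 1 and 4692 for embryos 2, 7, 3 and 9. The study asked how loss of Egfr in the brain changes RNA in the rostral and caudal cortex. Nestin-Cre acts in neural progenitors and the cells they form, while vessels, blood, microglia and meninges in the same dissection arise outside that lineage. Cre is named for knockout embryos alone; the sources used here do not state if controls have it, so loss of Egfr and presence of Cre cannot be told apart.

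Cholesterol is built from acetyl-CoA through mevalonate, farnesyl diphosphate, squalene and lanosterol. Fatty acids start from the same acetyl-CoA, which is carboxylated to malonyl-CoA, assembled into palmitate, and then elongated and desaturated. When sterols in the endoplasmic reticulum are low, Scap escorts the SREBP transcription factors (genes Srebf1 and Srebf2) to the Golgi, where they are cut and released to the nucleus to raise transcription of these enzymes; when sterols are high, Insig proteins hold the complex back. LXR receptors such as Nr1h2 sense oxidised sterols and raise export through Abca1 and Abcg1. The blood-brain barrier keeps lipoprotein cholesterol out of the brain, which therefore makes its own, after birth above all for myelin.

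Total counts ran from 25223733 to 30383672 per library. Egfr stood at 3.60 to 7.33 CPM (counts scaled to the same total in every library) in the 6 knockout libraries and at 19.2 to 41.6 CPM in the 6 control libraries, and Gh RNA was counted in all knockout libraries and at 0 in all controls. Other transcripts went against the titles. Nr2f1, a transcription factor known to be graded from low rostral to high caudal cortex, was higher in the library labelled rostral than in the one labelled caudal in knockout embryo 2 and control embryo 3. Both Xist, made from an inactive X chromosome, and Y-linked transcripts were present in control rostral libraries 1 and 3, at 229.7 and 278.3 CPM for Xist. In knockout embryos 5 and 2 and control embryo 9, the library labelled rostral held Y-linked transcripts and the one labelled caudal Xist. Rostral and caudal below therefore mean "as labelled", and sums of both parts follow the titles and may join different embryos. Knockout rostral 7 and knockout caudal 5 stood apart, with 7.25% and 4.77% of counts from mitochondrially encoded genes against 1.96% to 3.53% in the other 10 libraries. Leaving out those 2 libraries, or control rostral 1 and 3, was decided after the data had been seen. The p-values measure the spread between libraries, and the tissue was not sorted, so fewer cells of a type and less RNA per cell cannot be told apart.

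The promoter sequences were searched for control elements known from this pathway. Of the 37 genes, 28 were matched to RefSeq promoters, on build GRCm38.p6, which differs from the build of the counts; the others are Scd1, Scd2, Abcg1, Fads1, Fdft1, Fdps, Stard4, Npc1 and Sqle. Over 250 bases before to 50 bases after the start, 4 motifs were searched on both strands: a sterol regulatory element core (TCACNCCAC), to which SREBPs bind, a CCAAT box, bound by NF-Y, a GC box (GGGCGG), bound by Sp1-type factors, and the palindromic E-box CACGTG. Only Hmgcs1 held the sterol regulatory element core, 1 of 28 genes (3.57%), against 1.44% of the 27025 genes in the table. A CCAAT box was found in 21 of 28 (75.0%) against 41.06% of all genes, including 9 of 9 genes of the later sterol steps. A GC box was found in 23 of 28 (82.14%) against 38.2%, and the E-box in 6 of 28 (21.43%) against 8.09%. A gene was counted if any of its promoters held the motif. The 27025 genes were not limited to those expressed here, so these shares do not show that a motif is particular to this pathway. A match is a run of letters in this window and not a measured binding site, and a missing match says nothing of the factor. The 250 bases before the start are printed for 4 genes: Hmgcs1 (chr13:119690101-119690350, plus strand) as the gene with the element core, Cyp51 (chr5:4104698-4104947, minus strand) for the later steps, Insig1 (chr5:28071162-28071411, plus strand) and Fasn (chr11:120824548-120824797, minus strand) because the comparisons below turn on them. Capitals mark the element core and each CCAAT box on either strand (CCAAT or ATTGG).
Hmgcs1: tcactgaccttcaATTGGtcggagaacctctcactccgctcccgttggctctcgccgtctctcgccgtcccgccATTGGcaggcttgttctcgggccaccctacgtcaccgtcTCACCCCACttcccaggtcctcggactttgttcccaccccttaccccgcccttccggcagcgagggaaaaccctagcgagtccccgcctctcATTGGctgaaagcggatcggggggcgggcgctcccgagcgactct
Cyp51: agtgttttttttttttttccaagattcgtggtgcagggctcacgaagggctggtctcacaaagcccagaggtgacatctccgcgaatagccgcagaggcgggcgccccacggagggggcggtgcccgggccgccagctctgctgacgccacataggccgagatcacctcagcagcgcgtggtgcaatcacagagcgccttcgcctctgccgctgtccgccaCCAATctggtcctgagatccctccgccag
Insig1: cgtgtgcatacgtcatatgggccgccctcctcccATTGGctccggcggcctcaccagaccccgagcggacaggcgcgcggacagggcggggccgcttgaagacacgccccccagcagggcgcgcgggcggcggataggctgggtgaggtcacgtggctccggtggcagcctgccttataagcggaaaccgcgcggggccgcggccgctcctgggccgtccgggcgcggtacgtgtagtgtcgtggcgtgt
Fasn: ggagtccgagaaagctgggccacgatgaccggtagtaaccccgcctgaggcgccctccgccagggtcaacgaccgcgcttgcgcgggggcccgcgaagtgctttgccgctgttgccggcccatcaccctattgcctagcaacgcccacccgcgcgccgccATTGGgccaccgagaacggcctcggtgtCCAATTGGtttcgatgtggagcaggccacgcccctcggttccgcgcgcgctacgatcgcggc
In Hmgcs1 the element core begins 137 bases before the start, with a CCAAT box (ATTGG) on each side of it. Fasn held 3 CCAAT matches, 2 of which overlap as CCAATTGG and lie on opposite strands.

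Together the 37 genes took 0.489% to 0.590% of all counts in a library, and the 2 lowest sums were in knockout rostral 7 (0.489%) and knockout caudal 5 (0.495%). Levels between genes are compared per length, as TPM (counts per exonic length, scaled to a common total), by the median of the 12 libraries. Scd2, a stearoyl-CoA desaturase, was the most abundant at 842 TPM, and its paralog Scd1 stood at 15.8 TPM. Hmgcs1, which makes HMG-CoA, followed at 292 TPM. Fads2 and Fads1, the desaturases of polyunsaturated fatty acids, stood at 220 and 169 TPM. Fasn, the synthase of palmitate, stood at 141 TPM, Elovl6, which elongates palmitate, at 57.3 TPM, and Acaca, which makes malonyl-CoA, at 42.3 TPM.

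Along the sterol pathway the RNA levels were uneven. Acat2, which joins 2 acetyl-CoA molecules, stood at 187 TPM, while the next enzymes after mevalonate, the kinases Mvk and Pmvk, the decarboxylase Mvd, the isomerase Idi1 and the farnesyl diphosphate synthase Fdps, stood between 20 TPM (Mvk) and 38.8 TPM (Pmvk). Fdft1 (squalene synthase) at 159 TPM, Cyp51 (lanosterol demethylase) at 129 TPM and Sqle (squalene epoxidase) at 90.4 TPM led the later steps. The lowest of the later steps were Tm7sf2, a sterol reductase, at 7.88 TPM and the isomerase Ebp at 9.25 TPM. Among regulators, Srebf2, the SREBP gene tied to cholesterol enzymes, stood at 125 TPM and Srebf1, tied to fatty acid enzymes, at 21.4 TPM. Insig1 was at 90.2 TPM and Insig2 at 23.5 TPM. Of the transport genes, the lysosomal cholesterol carrier Npc2 was highest at 68.5 TPM, the exporter Abca1 stood at 36.7 TPM, and Abcg1 was lowest at 8.37 TPM. Soat1, which esterifies cholesterol for storage, was at 8.94 TPM.

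**Figure D1:**
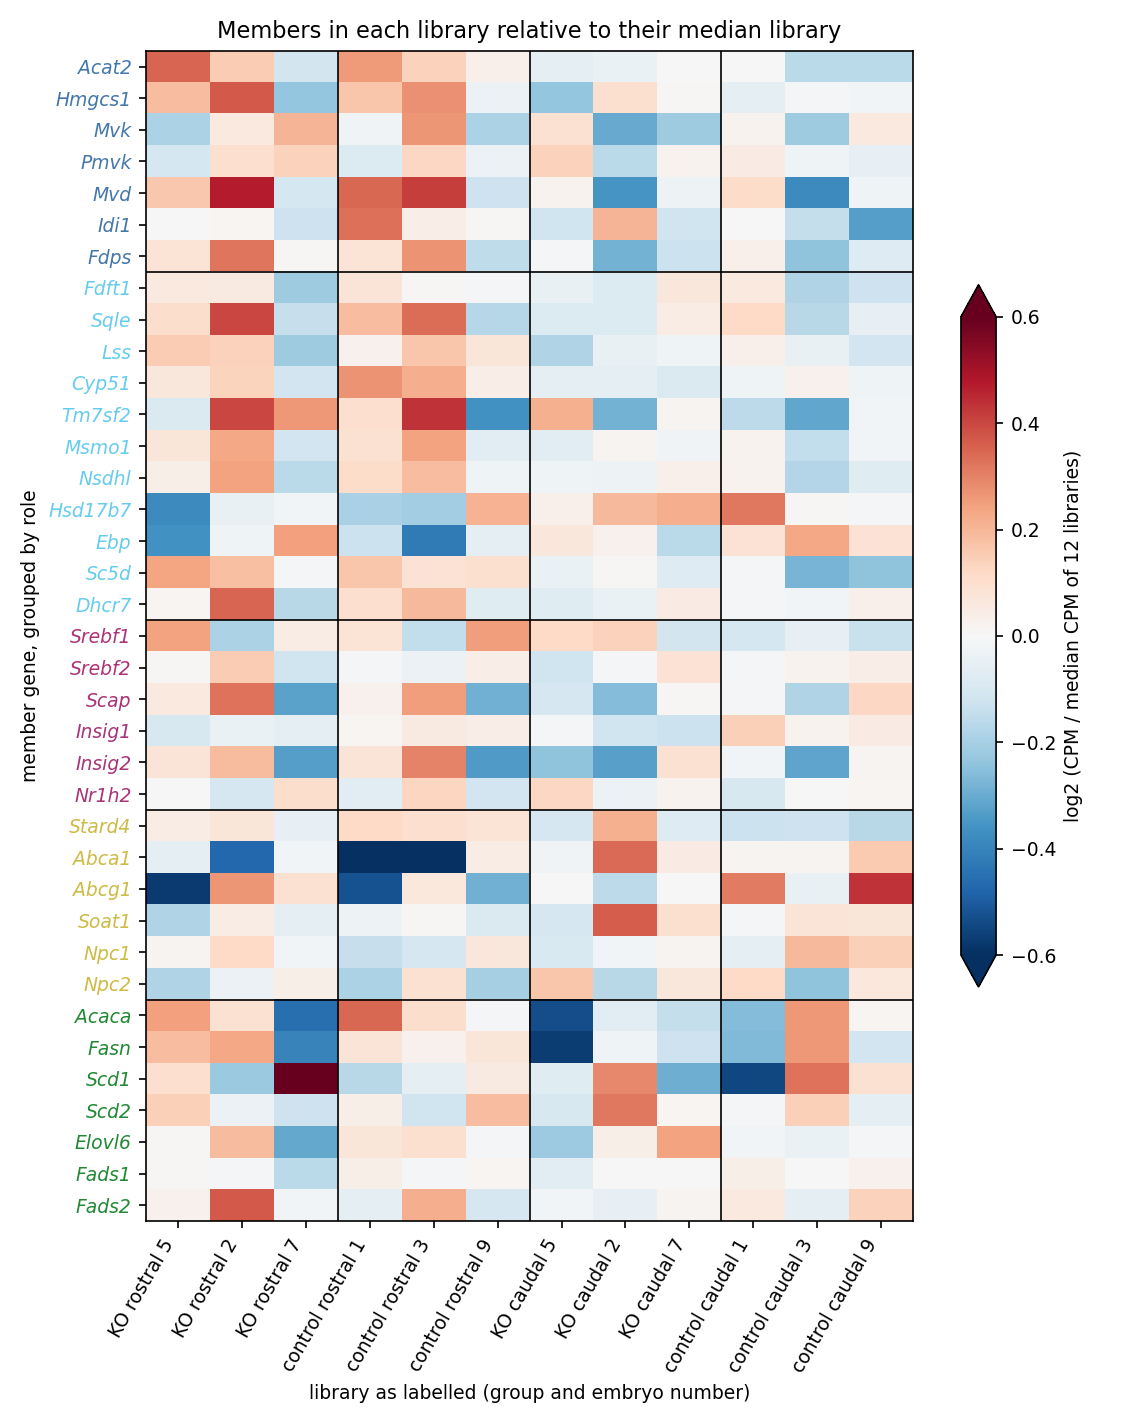
The level of each of the 37 genes (rows, grouped by role) in each of the 12 libraries (columns), as log2 of its CPM over its own median CPM; colours end at 0.6 in either direction and 3 values lie beyond. Knockout rostral 7 and knockout caudal 5 are each below the median in 27 of 37 genes, while knockout rostral 2 and control rostral 3 are above it for most sterol enzymes.

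Most members varied little between libraries. Fads1 varied least, with a highest level 1.15 times its lowest over the 12 libraries, followed by Nr1h2 at 1.18 times and Insig1 and Srebf2 at 1.21 times each. Scd1 varied most, at 2.23 times, followed by Abcg1 at 2.01 times, Abca1 at 1.97 times and Acaca at 1.84 times. The highest Scd1 level, 39.2 CPM, was in knockout rostral 7, and the lowest, 17.6 CPM, in control caudal 1.

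No member passed the test between knockout and control. In edgeR's quasi-likelihood test with Benjamini-Hochberg adjustment over all genes tested, 0 of 37 passed an adjusted p of 0.05 in libraries labelled rostral, labelled caudal, or in sums of both parts, against 0% of 17131 genes, 0.0472% of 16964 genes (8 called) and 0.0317% of 18935 genes (6 called). The adjusted p was 1 for every member in all 3 comparisons. At an unadjusted p under 0.05, 0, 0 and 1 members were found, against 1.05%, 5.13% and 3.40% of all genes, and the Wald test of DESeq2 called 0 members in each. The median log2 fold change of the members was 0.02 in rostral libraries, 0.00 in caudal libraries and 0.03 in the sums, against 0.00 over all genes tested in each of these. In the sums, 27 members had a value above 0 and 10 below it, against 49.8% of all genes above 0. Without titled embryos 2 and 3 the members above 0 numbered 15 and their median was -0.01.

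The intervals show how large a difference could have gone unseen, given the spread estimated in each comparison. The 95% interval of the fold change lay within 1.5-fold in either direction for 37 of 37 members in the sums, for 32 in rostral libraries and for 34 in caudal libraries. It lay within 1.2-fold for 32, 6 and 12 members. The sums assume that the titles pair the parts correctly, which was not borne out. Deviations of same-titled parts from their group means had correlations of -0.60 to -0.03. Opposite deviations offset each other in a sum, so the sums' intervals may be narrower than the spread between embryos warrants. The common coefficient of variation between replicates was 0.11 in the sums, 0.22 in rostral and 0.18 in caudal libraries. Intervals passing 1.5-fold belonged to Tm7sf2, Ebp, Abca1, Abcg1 and Scd1 in rostral libraries, and to Abcg1, Acaca and Fasn in caudal libraries. The widest reached a log2 fold change of 0.83 upward, for Abcg1 in rostral libraries.

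**Figure D2:**
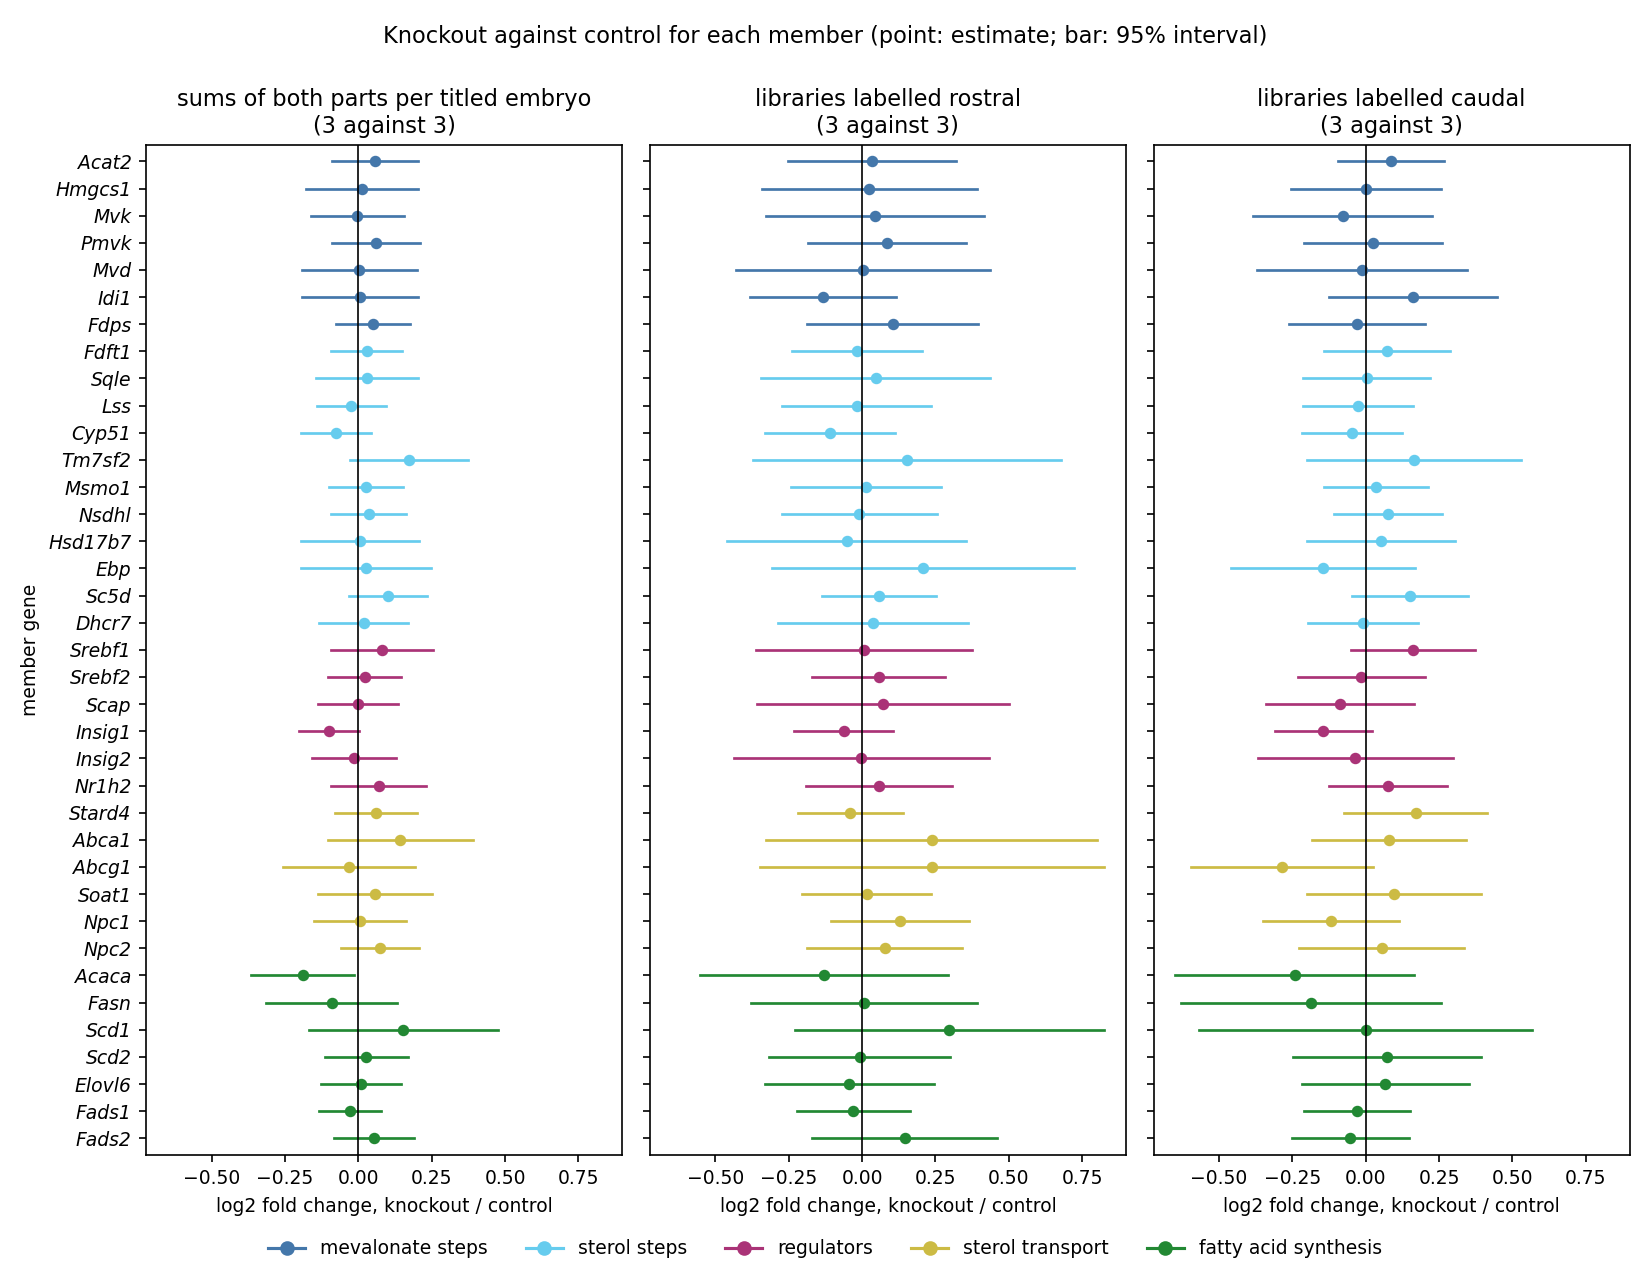
Log2 fold change of knockout over control (x axis) with its 95% interval (bar) for each of the 37 genes, coloured by role, in sums of both parts, in libraries labelled rostral and in libraries labelled caudal (3 against 3 in each panel). The interval of 36 genes includes 0 in the sums and that of all 37 does in each part; the exception is Acaca, at -0.19.

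By role, the counts stayed on both sides of 0. Of the 7 mevalonate genes, 6 were above 0 in the sums, with a median of 0.01 and values up to 0.06 for Pmvk. Of the 11 later sterol genes, 9 were above 0, with a median of 0.03, from -0.08 for Cyp51 to 0.17 for Tm7sf2. The 6 regulators were split 3 to 3, from -0.10 for Insig1 to 0.08 for Srebf1. Of the 6 transport genes, 5 were above 0, up to 0.14 for Abca1. The 7 fatty acid genes ran from -0.19 for Acaca to 0.15 for Scd1. None of these values passed the adjusted test.

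Insig1 (ENSMUSG00000045294.12, GRCm39 chromosome 5, 28276361 to 28283660), which holds SREBPs in the endoplasmic reticulum and is itself an SREBP target, was the member with the least overlap between genotypes. In libraries labelled rostral it stood at 86.0, 89.2 and 88.2 CPM in knockout libraries 5, 2 and 7 and at 92.5, 95.4 and 94.4 CPM in control libraries 1, 3 and 9. In libraries labelled caudal it stood at 91.2, 84.6 and 84.1 CPM in knockout libraries 5, 2 and 7 and at 101.4, 93.2 and 95.1 CPM in control libraries 1, 3 and 9. Every knockout library was below every control library, the highest knockout at 91.2 CPM and the lowest control at 92.5 CPM. Of 18935 genes, 24 (0.127%) did not overlap in this way, 18 of them (0.0951%) lower in knockout, and Insig1 was the only member among them. The means were 87.8 ± 1.67 CPM against 94.1 ± 1.45 CPM in rostral and 86.6 ± 3.95 CPM against 96.6 ± 4.26 CPM in caudal libraries (SD, n = 3 each). With TMM scaling the separation was lost: knockout libraries then reached 91.7 CPM and control rostral 1 stood at 89.4 CPM, and 0 members were free of overlap, against 0.141% of 17734 genes. The log2 fold change was -0.10 ± 0.04 (SE, unadjusted p = 0.053, adjusted p = 1) in the sums. It was -0.13 without knockout rostral 7 and caudal 5 (unadjusted p = 0.017, adjusted p = 1.00) and between -0.13 and -0.09 over the 17 alternatives of that comparison, with adjusted p from 0.516 to 1. Insig2, its paralog, gave -0.02 ± 0.06 (SE).

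Acaca (ENSMUSG00000020532.19, GRCm39 chromosome 11, 84020498 to 84292477), acetyl-CoA carboxylase, had the smallest p of the members in the sums. In libraries labelled rostral it stood at 279.5, 251.2 and 172.4 CPM in knockout libraries 5, 2 and 7 and at 299.8, 254.0 and 234.2 CPM in control libraries 1, 3 and 9. In the caudal libraries Acaca stood at 163.2, 225.9 and 213.7 CPM in knockout libraries 5, 2 and 7 and at 197.1, 282.9 and 237.9 CPM in control libraries 1, 3 and 9. The 2 lowest values were those of knockout rostral 7 and knockout caudal 5, and the remaining knockout libraries lay within the range of the controls. The log2 fold change in the sums was -0.19 ± 0.08 (SE, unadjusted p = 0.038, adjusted p = 1). It was -0.12 without embryo 7 and -0.14 without embryo 3, with an unadjusted p of 0.13 and 0.14. Over the 17 alternatives of that comparison it ran from -0.26, with 1 embryo left out, to -0.03. The lowest unadjusted p among those fits was 0.0032, and the lowest adjusted p was 0.29. With the second title number as a block it was -0.19 (unadjusted p = 0.0501). In that fit of the sums 0 members had an unadjusted p under 0.05, against 746 of 18935 genes. In a fit of the 10 libraries without knockout rostral 7 and caudal 5 it was -0.03 ± 0.11 (SE, unadjusted p = 0.77), and with all 12 libraries as separate samples it was -0.18 ± 0.13 (SE, unadjusted p = 0.19).

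Fasn (ENSMUSG00000025153.10, GRCm39 chromosome 11, 120696672 to 120715373), the enzyme after Acaca, followed the same libraries. Rostral libraries held Fasn at 561.4, 580.5 and 373.7 CPM in knockout libraries 5, 2 and 7 and at 520.8, 502.7 and 519.1 CPM in control libraries 1, 3 and 9. Caudal libraries held Fasn at 333.0, 484.4 and 453.5 CPM in knockout libraries 5, 2 and 7 and at 410.6, 591.6 and 456.4 CPM in control libraries 1, 3 and 9. The groups overlapped in both parts, with the lowest levels again in knockout rostral 7 and caudal 5. The log2 fold change in the sums was -0.09 ± 0.10 (SE, adjusted p = 1). Scd2, the most abundant member, stood at 1.47e+03 ± 140 CPM against 1.51e+03 ± 161 CPM in rostral and 1.57e+03 ± 238 CPM against 1.5e+03 ± 110 CPM in caudal libraries (knockout against control, SD, n = 3 each), and its highest level, 1834 CPM, was in knockout caudal 2.

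**Figure D3:**
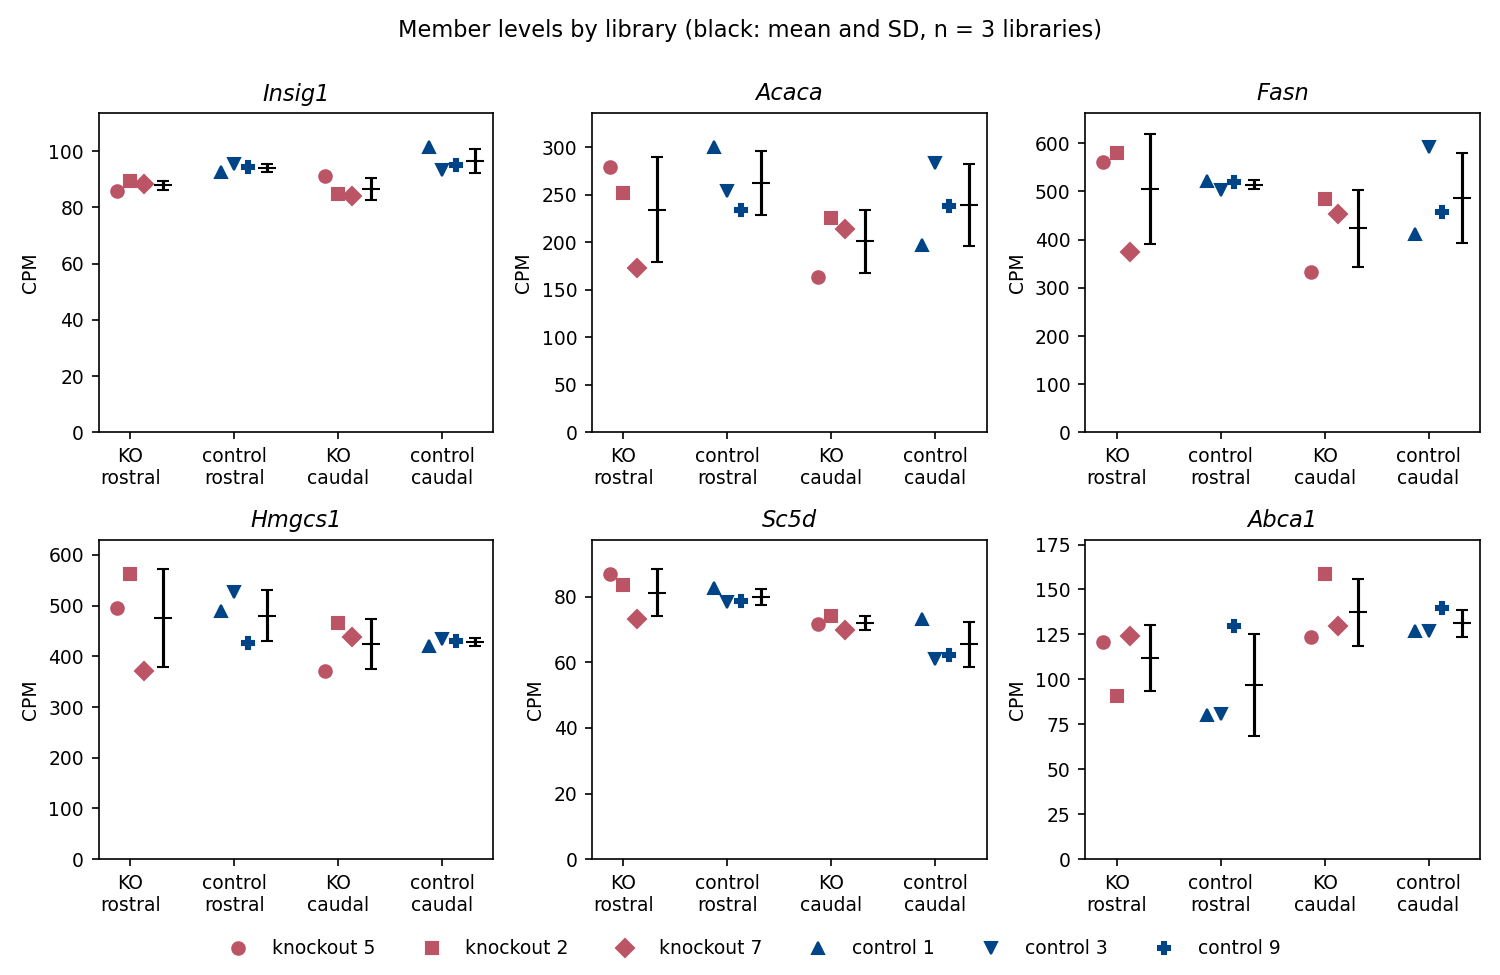
CPM (y axis, from 0) of 6 genes in each library by group (x axis); symbols mark the titled embryo, and the black bar is the mean and SD of 3 libraries. For Insig1 all knockout libraries lie below all control libraries, and for Acaca and Fasn the 2 lowest points are knockout rostral 7 and knockout caudal 5.

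Stard4, a carrier of cholesterol between membranes, differed in opposite directions in the parts by range alone. In the rostral libraries Stard4 stood at 34.9, 35.5 and 32.7 CPM in knockout libraries 5, 2 and 7 and at 36.8, 36.2 and 35.8 CPM in control libraries 1, 3 and 9. In the caudal libraries Stard4 stood at 31.5, 39.2 and 32.1 CPM in knockout libraries 5, 2 and 7 and at 31.0, 31.0 and 30.1 CPM in control libraries 1, 3 and 9. Knockout libraries were thus all lower than controls in rostral and all higher in caudal libraries. Free of overlap in rostral libraries were 2 members, Insig1 and Stard4, both lower, against 6.21% of genes and 4.75% of genes for lower levels alone, and with TMM scaling 0 members, against 5.12%. In caudal libraries 4 members were free of overlap, Stard4 higher and Cyp51, Ebp and Insig1 lower, against 10.1% of genes (4% higher, 6.14% lower), and with TMM scaling Stard4 and Insig1 were, against 10.4%. The log2 fold change of Stard4 was -0.04 ± 0.08 (SE) in rostral and 0.17 ± 0.11 (SE) in caudal libraries, and the interaction of genotype and part was 0.21 ± 0.12 (SE, adjusted p = 0.998).

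Abcg1, an exporter of cholesterol to lipoproteins, had the smallest p in caudal libraries. There it stood at 20.9, 18.7 and 20.8 CPM in knockout libraries 5, 2 and 7 and at 25.9, 20.2 and 28.2 CPM in control libraries 1, 3 and 9. The groups overlapped, with control libraries 1 and 9 highest and control library 3 below 2 knockout libraries. Knockout over control gave -0.29 ± 0.13 on the log2 scale in caudal libraries and 0.24 ± 0.25 in rostral libraries (SE, adjusted p = 1 in both). In rostral libraries the smallest p belonged to Scd1, at 0.30 ± 0.22 (SE, adjusted p = 1). There its highest level was 39.2 CPM, in knockout rostral 7, and without embryo 7 the log2 fold change was 0.02. The genotype effect differed between the parts for 0 of 37 members, against 0% of 17734 genes, in edgeR's interaction test, and for 0 members in DESeq2; at an unadjusted p under 0.05 it was 0 members against 2.74% of genes. The interval of this difference lay within 2-fold for 35 of 37 members and within 1.5-fold for 28.

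Libraries labelled caudal and rostral were compared in 1 fit of all 12 libraries with genotype as a covariate. No member was called, against 0% of 17734 genes in edgeR's quasi-likelihood test, and the lowest adjusted p was 0.415. DESeq2's Wald test called 56 genes, 0 of them members. No member was free of overlap between the 6 caudal and 6 rostral libraries, against 0.361% of genes, or 0.372% with TMM scaling. At an unadjusted p under 0.05 there were 6 members (16.2%), against 9.84% of all genes: Sc5d, Acat2, Fdps and Mvd lower in caudal, Abca1 and Hsd17b7 higher. The median log2 fold change of the members was -0.06, against 0.00 for all genes, with 23 members below 0 and 14 above. By role, 6 of 7 mevalonate genes (median -0.13) and 9 of 11 later sterol genes (median -0.09) were below 0, and 5 of 6 transport genes (median 0.14) were above 0. Without titled embryos 2 and 3, in which Nr2f1 ran against the labels, the members' median was 0.04 and 22 members were above 0. In that fit 7 of 11 later sterol genes were above 0 (median 0.03), 5 of 7 mevalonate genes were below 0 (median -0.04) and 5 of 6 transport genes were above 0 (median 0.16). There 5 members had an unadjusted p under 0.05, against 2232 of 17759 genes: Sc5d, Srebf1 and Stard4 lower in caudal, Abcg1 and Npc2 higher. Without knockout rostral 7 and caudal 5 there were 11 such members, against 2277 of 17993 genes, and the members' median was -0.08. Without control rostral 1 and 3, 7 of 7 mevalonate genes (median -0.09) and 9 of 11 later sterol genes (median -0.04) were below 0 and 4 of 6 transport genes (median 0.15) above it. The median over all members was then -0.03, and 1 member, Sc5d, had an unadjusted p under 0.05.

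Sc5d (ENSMUSG00000032018.15, GRCm39 chromosome 9, 42162891 to 42175552), the sterol desaturase before the last reduction, had the smallest p. Rostral libraries held Sc5d at 86.9, 83.6 and 73.1 CPM in knockout libraries 5, 2 and 7 and at 82.8, 78.5 and 78.8 CPM in control libraries 1, 3 and 9. Caudal libraries held Sc5d at 71.8, 74.3 and 70.0 CPM in knockout libraries 5, 2 and 7 and at 73.3, 60.9 and 62.3 CPM in control libraries 1, 3 and 9. Knockout rostral 7, at 73.1 CPM, lay below control caudal 1 and knockout caudal 2, at 73.3 and 74.3 CPM, and every other rostral library lay above every caudal one. The log2 fold change of caudal over rostral was -0.20 ± 0.06 (SE, unadjusted p = 0.0035, adjusted p = 0.415). Over the 16 alternatives it ran from -0.23 to -0.17, with an unadjusted p from 0.0011 to 0.024 and an adjusted p from 0.102 to 1.00. Without titled embryos 2 and 3 it was -0.20 (adjusted p = 0.288), and without control rostral 1 and 3 it was -0.19 (adjusted p = 1.00).

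Abca1, the exporter of cholesterol to apolipoproteins, had the largest value, 0.39 ± 0.14 (SE, unadjusted p = 0.014, adjusted p = 0.443). In libraries labelled rostral it stood at 120.5, 90.6 and 124.3 CPM in knockout libraries 5, 2 and 7 and at 80.3, 81.0 and 129.6 CPM in control libraries 1, 3 and 9. In libraries labelled caudal it stood at 123.7, 158.6 and 129.9 CPM in knockout libraries 5, 2 and 7 and at 127.1, 126.8 and 139.8 CPM in control libraries 1, 3 and 9. The low libraries were control rostral 1 and 3 and knockout rostral 2, all 3 of which are named above for transcripts against their labels. Without control rostral 1 and 3 the value was 0.21 (adjusted p = 1.00), and without titled embryos 2 and 3 it was also 0.21 (adjusted p = 0.649). Acat2 gave -0.18 ± 0.07 (SE), and -0.15 and -0.18 in the same 2 fits. Mvd and Fdps, both of the mevalonate steps, gave -0.28 ± 0.12 and -0.19 ± 0.08 (SE), and -0.04 each without titled embryos 2 and 3. Their highest levels were in knockout rostral 2 (27.0 and 69.9 CPM) and control rostral 3 (26.0 and 67.3 CPM). Hsd17b7, a ketosteroid reductase, gave 0.25 ± 0.10 (SE), and 0.17 without control rostral 1 and 3.

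**Figure D4:**
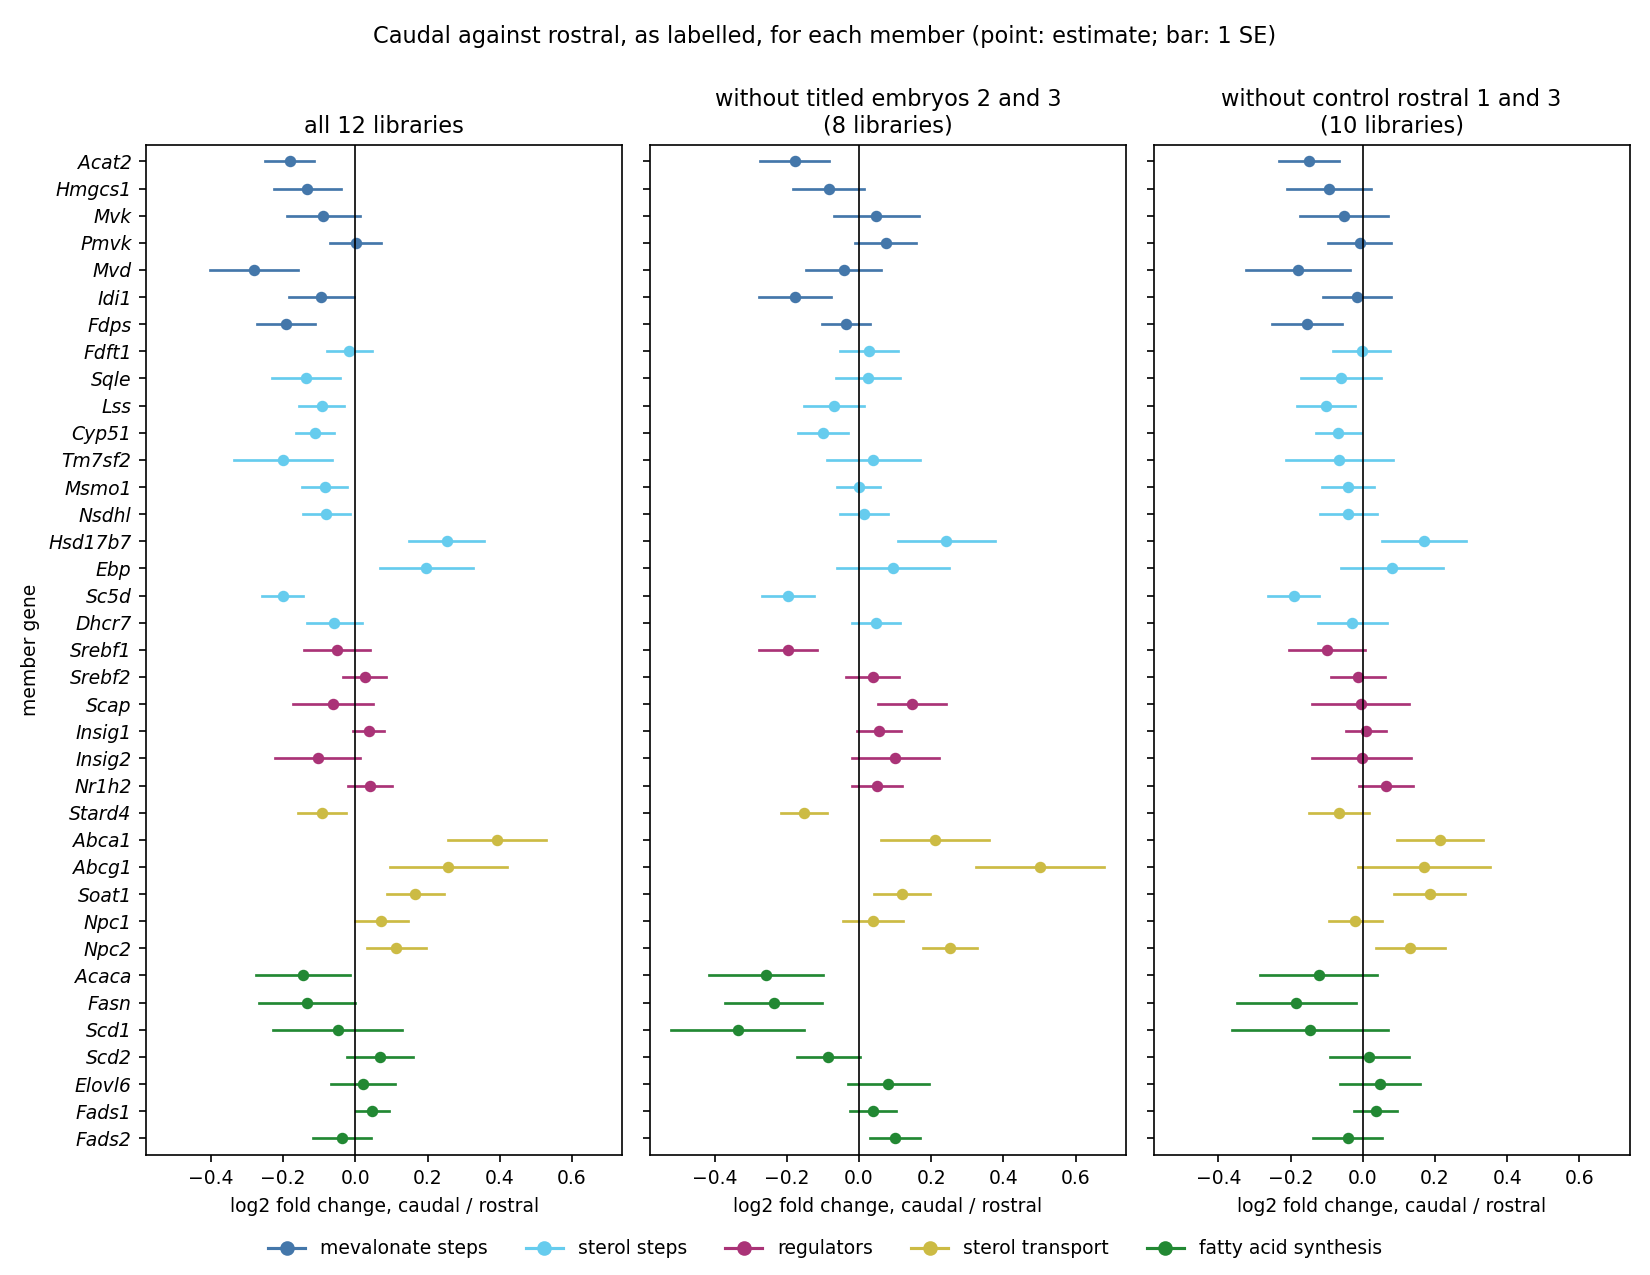
Log2 fold change of caudal over rostral, as labelled (x axis), with 1 SE to each side (bar) for each of the 37 genes, coloured by role, in all 12 libraries, without titled embryos 2 and 3, and without control rostral 1 and 3. Sc5d stays between -0.20 and -0.19 in the 3 panels, while Mvd and Fdps move to -0.04 without titled embryos 2 and 3.

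Knockout rostral 7 and knockout caudal 5 also stood apart in the levels of many genes, the members included. In both of them 8 of 37 members (21.62%) were lower than in any of the other 10 libraries: Hmgcs1, Lss, Dhcr7, Srebf2, Acaca, Fasn, Elovl6 and Fads1. Over the 10029 genes with a mean of at least 10 CPM this held for 15.4%. Pmvk was higher in both than in the other 10 libraries, 1 of 37 against 6.69% of genes. Hmgcs1 stood in libraries labelled rostral at 494.9, 562.4 and 371.5 CPM in knockout libraries 5, 2 and 7 and at 488.5, 526.1 and 425.6 CPM in control libraries 1, 3 and 9. In libraries labelled caudal Hmgcs1 stood at 370.4, 465.2 and 437.7 CPM in knockout libraries 5, 2 and 7 and at 420.0, 433.7 and 430.4 CPM in control libraries 1, 3 and 9. Both lowest values, 371.5 and 370.4 CPM, were those of these 2 libraries. The ratio of their mean to that of the other 4 knockout libraries, on the log2 scale with 1 CPM added, was -0.56 for Fasn, -0.53 for Acaca, -0.40 for Hmgcs1 and -0.38 for Elovl6, and 0.31 for Scd1 and 0.29 for Mvk. Its median was -0.13 over members and -0.05 over the 10029 genes. Genes of greater exonic length had lower ratios. The rank correlation of the ratio with exonic length was -0.41 across the 37 members and -0.59 across the 10029 genes. These genes share the same libraries and are not independent. Exonic length belongs to the gene's annotation and is not the measured length of its transcripts. Acaca has the greatest exonic length of the members, 17074 bases, and Fasn has 10947 bases. Other members of great exonic length had ratios nearer 0: Npc1 (11317 bases) -0.09, Abca1 (10363 bases) -0.01, Soat1 (9791 bases) -0.17 and Lss (10787 bases) -0.25. The same 2 libraries had the highest sums of 6 red blood cell genes, 12354 and 8194 CPM, against 4232 to 7450 CPM in the other 10. The part of exonic length, mitochondrial share and blood in the members' levels was not tested.

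**Figure D5:**
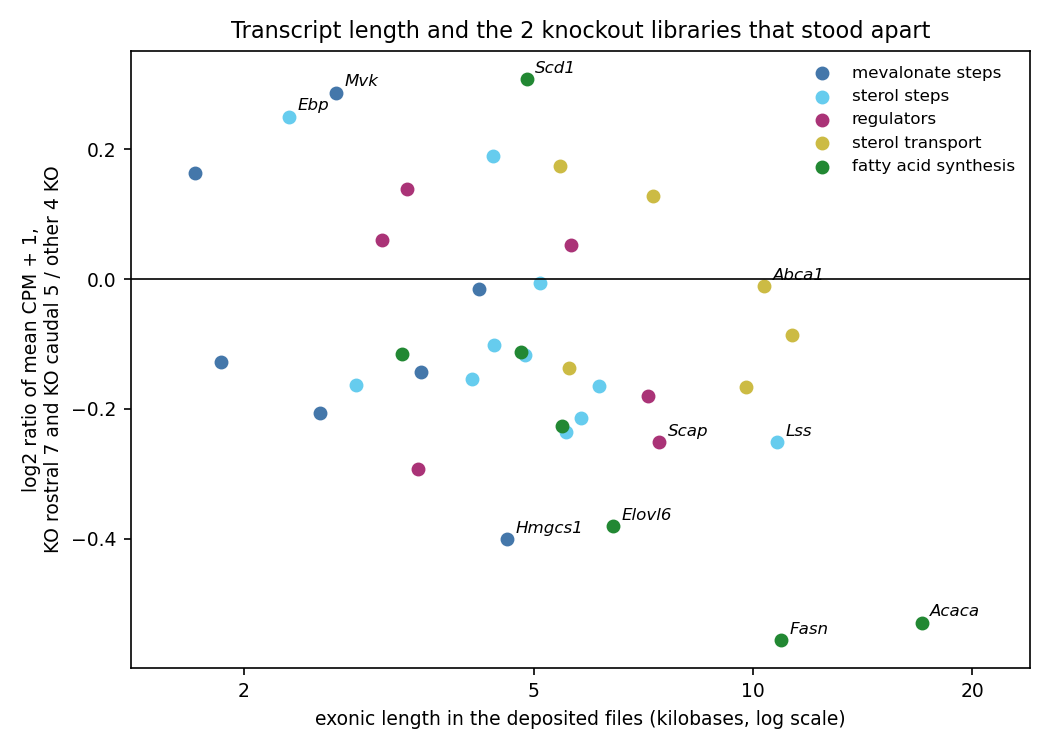
Exonic length of each of the 37 genes (x axis, log scale) against the log2 ratio of mean CPM + 1 in knockout rostral 7 and caudal 5 over the other 4 knockout libraries (y axis), coloured by role. Acaca and Fasn, at -0.53 and -0.56, are the lowest points and among those of greatest exonic length. Npc1 and Abca1, of similar exonic length to Fasn, lie at -0.09 and -0.01.

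The members were next compared by how they varied together over the 12 libraries, after each group's mean was taken off. All points share these libraries and their depth, and the 2 libraries above weigh on each value, so the correlations are descriptions. Over the 666 pairs of members the median Pearson r was 0.17, against 0.06 over all pairs of the 10029 genes, and 47 pairs (7.06%) exceeded 0.8, against 4.28%. The later sterol genes had the highest median, 0.51 over 55 pairs, followed by the mevalonate genes at 0.40 over 21 pairs. The regulators and the transport genes each had 15 pairs, with medians of 0.03 and 0.04. The closest pair was Sqle and Nsdhl at r = 0.96, followed by Mvd and Fdps at 0.95, Sqle and Msmo1 at 0.95, and Scap and Insig2 at 0.95. Acaca and Fasn, consecutive in fatty acid synthesis, had r = 0.92. The most opposed pairs were Fdft1 and Scd1 at -0.94 and Mvk and Scd2 at -0.92.

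The nearest genes were sought for 4 members, Hmgcs1, Sqle, Fasn and Abca1, and those named here are not members. Of the 10028 genes set against Hmgcs1, Pja2 (r = 0.99), Cds2 (0.98) and Rragd (0.98) were nearest over the 12 libraries. Nearest to Sqle were Ywhab, Golga1 and Baiap2 (0.98 each), and nearest to Fasn were Mdn1, Fat3 and Cmip (0.98 each). Nearest to Abca1 were Nes (0.95), the gene of the progenitor filament nestin, Mmp14 (0.94) and Zfp660 (0.93).

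A further 68 genes of sterol synthesis, SREBP control, sterol transport and fatty acid metabolism were listed, of which 64 were tested. None was called in any of the 5 comparisons. At an unadjusted p under 0.05 there were 0 in rostral libraries, against 1.05% of all genes, 4 in caudal libraries (6.25%, against 5.13%) and 2 in the sums (3.12%, against 3.40%). There were 12 between caudal and rostral (18.8%, against 9.84%) and 1 in the interaction (1.56%, against 2.74%). Their median log2 fold change in the sums was 0.00. Acss2, which makes acetyl-CoA from acetate, gave 0.23 ± 0.08 (SE, adjusted p = 1) in the sums and 0.39 ± 0.14 (SE, adjusted p = 0.908) in caudal libraries. Gramd1b, a carrier of plasma membrane cholesterol, gave 0.26 ± 0.09 (SE, adjusted p = 1) in the sums. Cyp46a1, the neuronal hydroxylase through which the brain clears cholesterol, gave -0.64 ± 0.21 (SE, adjusted p = 0.415) for caudal over rostral and -0.50 ± 0.19 (SE, adjusted p = 0.937) for knockout over control in caudal libraries. Acsl6, which activates long fatty acids, gave -0.31 ± 0.09 (SE, adjusted p = 0.415) for caudal over rostral.

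Cell type markers give the setting of these levels. Neuron genes, which are not particular to cortical projection neurons, summed to 5214 to 6886 CPM over the 12 libraries, with 9 of 9 detected. The 10 genes that define cortex summed to 2099 CPM in knockout rostral 7 and to 2589 to 3318 CPM in the other 11 libraries. Ventral forebrain markers summed to between 177 CPM, in knockout caudal 7, and 965 CPM, in control caudal 3. Knockout rostral 7 held 574 CPM of them and knockout caudal 5 held 375 CPM. The myelin genes Mag, Mobp and Mog were under 1 CPM in every library. The 8 markers of oligodendrocyte precursors summed to 72.3 to 91.2 CPM in knockout caudal and 124.6 to 182.4 CPM in control caudal libraries, which did not overlap, and to 87.1 to 135 CPM against 114 to 130.5 CPM in rostral libraries, which did. Intermediate progenitor markers summed to 739.1 to 822.9 CPM in knockout caudal and 459.7 to 639.8 CPM in control caudal libraries. Microglia markers summed to 138.6 to 162.2 CPM and 163.4 to 196.1 CPM in the same groups. Neither sum overlapped in caudal libraries, and both overlapped in rostral libraries. For microglia the nearest libraries were knockout caudal 5 at 162.2 CPM and control caudal 1 at 163.4 CPM. Over all 12 libraries the highest microglia sum was in knockout rostral 7, at 230.3 CPM. TMM scaling was not applied to these sums. Of single genes, 10.1% were free of overlap between genotypes in caudal libraries. In edgeR's test on the sums of both parts, 2 of 8 precursor markers were called, both lower in knockout (lowest adjusted p = 0.0076). So was 1 of 12 astrocyte and radial glia markers, also lower, against 6 of 18935 genes. In caudal libraries 6 of 8 precursor markers had an unadjusted p under 0.05, against 5.13% of genes, and 0 were called. No intermediate progenitor or microglia marker was called in either. Choroid plexus genes summed to 0.33 to 15.3 CPM in 11 libraries and to 57.3 CPM in control rostral 3. The part of these cell types in the members' levels was not tested.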

How the data were processed

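The 12 libraries were made from captured messenger RNA and read as pairs, per the labels' protocols. Reads were aligned with STAR 2.7.8a and counted with featureCounts 2.0.3 on GRCm39, per the submitters' processing notes. Fragments were assigned to genes of GENCODE mouse release 28, with reads that match several places or genes counted in fractions, per the file headers. The authors thus deposited an estimated count (expected count) for each gene, made by featureCounts with no normalization, per the file headers. Values were not whole in 11 of 12 libraries for Fdps and in 10 for Scd2, so some of their reads were shared with other places or genes, which the counts do not name, and their levels are less certain.

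Counts were rounded, and edgeR 4.0.16 under R 4.3.3 tested them (TMM, filterByExpr, robust quasi-likelihood test, Benjamini-Hochberg adjusted p under 0.05 over all genes tested). Knockout was compared with control within each part and in sums per titled embryo (3 against 3). Caudal against rostral and the interaction used all 12 libraries without a block. CPM used the library's total count and TPM the exonic length in the files. The members and lists were chosen with earlier results of these data known. All members may be named; other pathway genes were named by the 3 smallest p per comparison, and not all of these are printed. Alternatives were DESeq2 1.42.0 (size factors and Wald test), other filters, mitochondrial genes left out, title number or embryo as a block, limma 3.58.1 with the embryo as a random effect, and libraries left out. Only the titles say that libraries of a group come from separate embryos; replicates differed by more than sampling noise. Same-titled parts did not deviate together: the 6 correlations of their deviations from group means ran from -0.60 to -0.03, and 0 exceeded 0.1. Depth was similar in all libraries, at 25223733 to 30383672 counts.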

Additional observations from a re-analysis of the deposited data

Results flagged for a closer look

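Stard4 was singled out because its knockout libraries all lay below the controls in libraries labelled rostral and all above them in libraries labelled caudal. The difference between the parts, as the interaction of genotype and part, was 0.21 on the log2 scale (edgeR's quasi-likelihood test, unadjusted p = 0.108, adjusted p = 0.998), and so did not pass the test. With TMM scaling the rostral libraries overlapped. Single libraries far from their group were not looked for, since each group has 3 libraries.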

How the results depend on the processing

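Across 77 alternative fits, 0 members were called, and the lowest adjusted p of any member was 0.102 (Sc5d, caudal over rostral, DESeq2). For the 25 gene results with the smallest p, 384 of 385 values kept their direction and side of the threshold; Npc1 in rostral libraries went from 0.129 to -0.0281 without control rostral 1 and 3, a fit of 3 knockout libraries against 1 control library that is assumed to vary like the others, and the cause was not tested. Counts of called genes over the whole table moved more. DESeq2's Wald test called 4 genes in rostral libraries (edgeR 0), 77 in caudal libraries (edgeR 8), 32 in the sums (edgeR 6), 56 between caudal and rostral (edgeR 0) and 1 in the interaction (edgeR 0). With no filter the calls were 2 in rostral libraries, 57 in caudal libraries and 113 in the sums. All 12 libraries in 1 fit gave 2 rostral and 3 caudal calls, and as separate samples 3 in place of the sums. Without titled embryos 2 and 3 the calls were 21 in the sums and 67 between caudal and rostral. In place of the sums, 3 genes were called without knockout rostral 7 and caudal 5, and 10 without control rostral 1 and 3. Leaving out 1 embryo at a time gave 0 calls in rostral libraries, 2 to 8 in caudal libraries (2 without embryo 5, 4 without 7, 5 without 9), 2 to 21 in the sums (2 without embryo 5, 21 without 2, 10 without 3), 0 between caudal and rostral, and 0 to 6 in the interaction (1 without embryo 1, 6 without 9). With the titled embryo as a replicate block 0 genes were called between caudal and rostral and 0 in the interaction, and 11 with the embryo as a random effect in place of the sums; the titled pairing was not borne out by the correlations, so these blocks rest on the titles. With TMM scaling the members free of overlap fell from 1 to 0 in all 12 libraries, from 2 to 0 in rostral libraries and from 4 to 2 in caudal libraries. With 3 libraries a group, small differences of single genes were not detectable.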
